A study of Mus musculus with 12 samples.

Results

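The Ikaros family consists of 5 zinc finger transcription factors, Ikaros (*Ikzf1*), Helios (*Ikzf2*), Aiolos (*Ikzf3*), Eos (*Ikzf4*) and Pegasus (*Ikzf5*). The genes were taken by their symbols, and all 5 were found among the 24189 genes that are listed for every RNA-seq library. The data comprise 10 RNA-seq libraries, with 2 for each of 5 groups, and 2 lists of Mist1 peaks, all from C57BL/6 mice. They address how the transcription factors Xbp1 and Mist1, the latter encoded by *Bhlha15*, control gene expression in antibody-secreting cells.

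The plasmablasts (PBs) were obtained from splenic B cells in the iGB culture, in which a layer of 40LB feeder cells presents CD40 ligand and BAFF to the B cells, and were sorted on day 8 by surface markers that included CD138 (present) and CD23 (absent). Control PBs were *Xbp1* fl/fl, Xbp1-deficient PBs were *Cd23*-Cre *Xbp1* fl/fl, and Mist1-deficient PBs were *Bhlha15* CreER/CreER, with CreER inserted in both copies of the *Bhlha15* gene. The *Bhlha15* CreER/CreER PBs were therefore compared with *Xbp1* fl/fl PBs, which carry floxed *Xbp1* alleles that *Bhlha15* CreER/CreER cells lack by their label. The plasma cells (PCs) were TACI+CD138+ cells of the spleen on day 7 after immunization with NP-KLH. Control PCs carry the label wildtype, although the study's methods describe *Bhlha15* fl/fl mice, and Mist1-deficient PCs were *Cd23*-Cre *Bhlha15* fl/fl. *Cd23*-Cre deletes floxed alleles in immature and mature B cells, which is before the PB or PC stage. The Mist1 peaks come from 2 Bio-ChIP-seq experiments with *Bhlha15* fl/fl *R26* BirA/BirA PBs on day 4 of LPS stimulation, in which biotin-tagged Mist1 is pulled down with streptavidin. The ages of the mice were not given with the libraries.

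Ikaros family proteins bind DNA through N-terminal zinc fingers, which in Ikaros and Aiolos recognize sites with the core letters GGGAA. The proteins of the family pair with themselves and with each other through C-terminal zinc fingers. They recruit the NuRD chromatin remodeling complex and other corepressors, and can also activate genes. Ikaros and Aiolos are the members known from the B cell lineage, where they act from early progenitors to antibody-secreting cells, whereas Helios and Eos are best known from regulatory T cells. Pegasus is the most divergent member and is broadly expressed. In human plasma cell tumors, Ikaros and Aiolos are the proteins that drugs such as lenalidomide direct to the cereblon ubiquitin ligase for degradation.

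Mist1 regions were dense at the genes of Ikaros and Aiolos and were not found at the gene of Helios. Regions present in both ChIP experiments, defined as peaks sharing at least 1 bp, numbered 23806. On the mm9 genome, *Ikzf1* lies on the plus strand at chr11:11585006-11672929 and had 12 common regions within 10 kb, of which 11 touched the gene and 3 lay within 1 kb of an annotated transcription start site (TSS). These 3 lie side by side, from chr11:11585764 to chr11:11592996. A count of regions is therefore not a count of well separated sites. *Ikzf3*, on the minus strand at chr11:98326216-98407345, had 10 common regions, of which 8 touched the gene and 1 lay at a TSS. The regions covered 26.8% of *Ikzf1* and 17.9% of *Ikzf3*. *Ikzf5* (chr7:138532166-138554035, minus strand) had a single common region, which was at its TSS. *Ikzf4* (chr10:128067899-128083047, minus strand) also had a single region, and this lay beyond the 3′ end of the gene. No region was found within 10 kb of *Ikzf2*, at chr1:69577788-69732534 on the minus strand, although it is the longest of the 5 genes with 154.7 kb.

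A Mist1 region near an expressed gene is common in these data. Of 22367 protein-coding genes, 54.1% had a common region within 10 kb, and of the 8860 genes with at least 5 TPM (a transcript level corrected for gene length and for the library's total) in control PBs, 85.5% had one. As many regions as at *Ikzf1* were found at 0.402% of all protein-coding genes, and as many as at *Ikzf3* at 0.688%. Among the genes with at least 5 TPM, these shares were 0.914% and 1.51%. Per 100 kb of gene and flanks, there were 11.1 regions at *Ikzf1* and 9.89 at *Ikzf3*, compared with a median of 3.52 for the genes with at least 5 TPM. The peak lists give positions alone, so that binding strength is unknown.

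**Figure D1:**
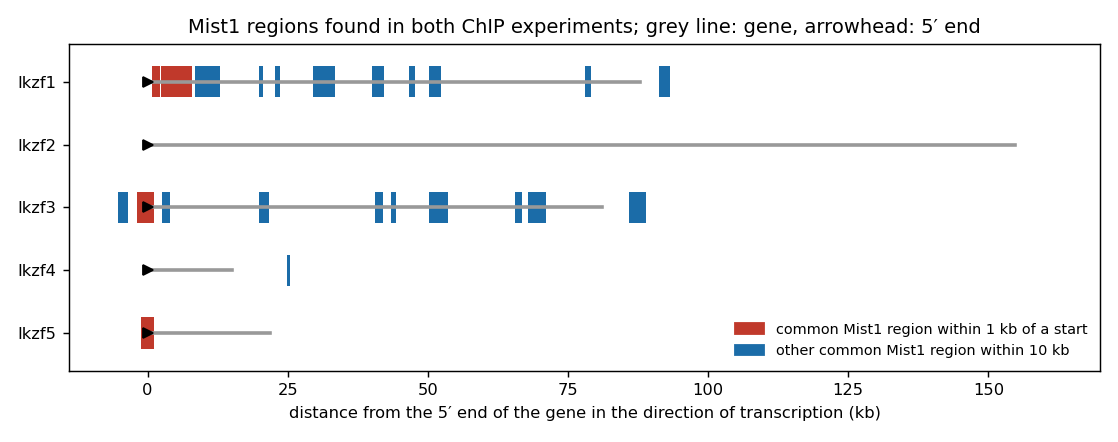
Position of the Mist1 regions common to both ChIP experiments along the 5 genes, with the distance from the 5′ end of the gene on the x axis in kb and 1 row for each gene. The 12 regions of *Ikzf1* and the 10 of *Ikzf3* are spread along the genes, of which they cover 26.8% and 17.9%, while *Ikzf2* has none.

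The following mm9 sequences are shown because they are the stretches of DNA under Mist1 regions at the 3 members with substantial expression. They are the central 150 bases of the narrowest common intron region of *Ikzf1* and of *Ikzf3* that touches no exon, the 200 bases upstream of an annotated *Ikzf3* start, and the 79 bases between the divergent starts of *Ikzf5* and *Acadsb*. Capitals mark E-boxes, the CANNTG motif that is bound by basic helix-loop-helix proteins such as Mist1.
*Ikzf1* intron, chr11:11605205-11605354, plus strand: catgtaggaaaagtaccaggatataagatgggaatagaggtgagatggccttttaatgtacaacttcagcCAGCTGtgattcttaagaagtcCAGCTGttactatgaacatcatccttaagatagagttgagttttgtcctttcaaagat
*Ikzf3* intron, chr11:98363423-98363572, minus strand: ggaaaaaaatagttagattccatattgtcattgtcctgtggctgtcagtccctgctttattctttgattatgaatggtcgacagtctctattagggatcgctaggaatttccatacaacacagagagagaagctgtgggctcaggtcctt
*Ikzf3* upstream, chr11:98407346-98407545, minus strand: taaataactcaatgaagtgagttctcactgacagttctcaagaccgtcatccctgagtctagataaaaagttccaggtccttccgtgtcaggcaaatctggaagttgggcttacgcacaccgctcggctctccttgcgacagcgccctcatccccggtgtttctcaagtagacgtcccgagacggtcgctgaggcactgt
*Ikzf5* and *Acadsb*, chr7:138554036-138554114, minus strand: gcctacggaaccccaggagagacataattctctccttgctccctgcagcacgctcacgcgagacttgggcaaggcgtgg

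The *Ikzf1* intron sequence contains 2 E-boxes, both of them CAGCTG, whereas the other printed sequences contain none. In the central 150 bases, CAGCTG was present in 3 of the 12 *Ikzf1* regions and in 2 of the 10 *Ikzf3* regions, compared with 22.3% of all common regions. CANNTG, which includes CAGCTG, was present in 10 of 12 and 7 of 10 regions, compared with 66.9% of all. The single *Ikzf5* region had CAGCTG in its central 150 bases, outside the 79 bases shown. GGGAA, searched on both strands, was present in 2 of the 12 *Ikzf1* regions and in 3 of the 10 *Ikzf3* regions, compared with 35.3% of all common regions. CANNTG and CAGCTG are their own reverse complements, so that a match counts for both strands.

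Each RNA-seq library was deposited as TPM after immunoglobulin and T cell receptor genes had been removed, so that the sequencing depth is unknown and no counting interval can be given. *Xbp1* was at 3168 and 3043 TPM in control PBs and at 1981 and 2024 TPM in Xbp1-deficient PBs, with a scaled log2 difference of -0.84 (SE 0.12, limma adjusted p = 0.00144). *Bhlha15* was at 176 and 159 TPM in control PBs and at 0.210 and 0.551 TPM in Mist1-deficient PBs. In PCs it was at 258 and 242 TPM in controls and at 14.4 and 16.6 TPM in Mist1-deficient cells. Xbp1-deficient PBs were also low in *Bhlha15*, with 3.57 and 2.60 TPM. Plasma cell markers were high in every library, with summed levels from 21030 to 41820 TPM in PBs and from 91320 to 98450 TPM in PCs. Fibroblast markers, which the feeder cells could contribute, summed to 796 to 1553 TPM in PBs and to 8.38 to 11.2 TPM in PCs. Labels do not say whether the 2 libraries of a group came from different mice, so that p-values measure the spread between these libraries, and fewer cells of a type cannot be told apart from less RNA for each cell.

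Ikaros and Aiolos made up most of the family's transcripts in every library. In deposited TPM, the family summed to between 287 and 465 TPM, of which *Ikzf1* took 40.01% to 54.88%, *Ikzf3* 39.7% to 54.7% and *Ikzf5* 3.46% to 5.68%. *Ikzf2* and *Ikzf4* together never reached 2 TPM in a library. *Ikzf1* ranked high, with 3.23% to 4.73% of all genes above it by group means, and *Ikzf3* had 2.55% to 6.13% of genes above it. *Ikzf5* had 25.2% to 31.2% of genes above it, and *Ikzf2* and *Ikzf4* each had between 49.6% and 61.1%.

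*Ikzf1* was at 175 and 165 TPM in control PBs, 212 and 228 TPM in Xbp1-deficient PBs, 160 and 152 TPM in Mist1-deficient PBs, 196 and 199 TPM in control PCs and 179.5 and 179.1 TPM in Mist1-deficient PCs. The 2 Xbp1-deficient libraries had the highest values and the 2 Mist1-deficient PB libraries the lowest. *Ikzf3* was at 126 and 120.4 TPM in control PBs, 176 and 191 TPM in Xbp1-deficient PBs, 137 and 119 TPM in Mist1-deficient PBs, 212 and 239 TPM in control PCs and 240.4 and 245 TPM in Mist1-deficient PCs. All 4 PC libraries were above all 6 PB libraries, and the Xbp1-deficient PBs stood between control PBs and PCs. *Ikzf5* was at 16.8 and 16.7 TPM in control PBs, 13.9 and 15.8 TPM in Xbp1-deficient PBs, 16.2 and 16.1 TPM in Mist1-deficient PBs, 24.6 and 25.8 TPM in control PCs and 22.03 and 22.13 TPM in Mist1-deficient PCs. Its PC values were also above all PB values, but the Xbp1-deficient PBs were the lowest group.

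**Figure D2:**
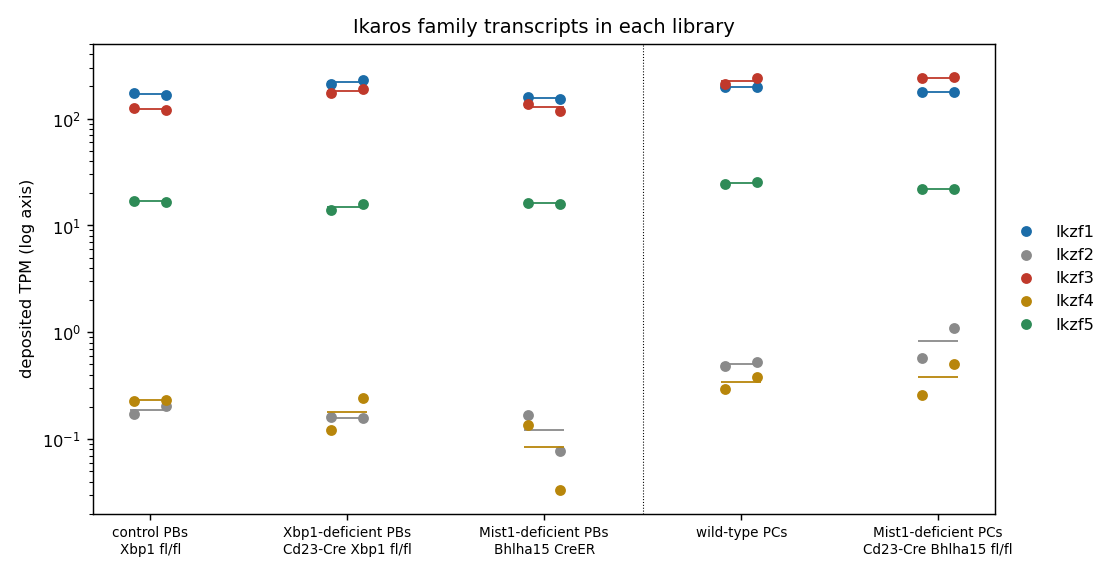
Deposited TPM of the 5 members on a log axis, with a point for each library and a line at the mean of the 2 libraries of a group, in the 3 PB groups to the left of the dotted line and the 2 PC groups to its right. *Ikzf1* and *Ikzf3* lie between 119 and 245 TPM, *Ikzf5* between 13.9 and 25.8 TPM, and *Ikzf2* and *Ikzf4* at or below 1.09 TPM.

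Aiolos transcripts exceeded Ikaros transcripts in PCs but not in PBs. The ratio of *Ikzf3* to *Ikzf1* TPM, which is taken within a library and does not depend on the scaling between libraries, was 0.724 and 0.730 in control PBs, 0.826 and 0.837 in Xbp1-deficient PBs and 0.856 and 0.779 in Mist1-deficient PBs. In PCs, it was 1.09 and 1.20 in controls and 1.34 and 1.37 in Mist1-deficient cells. Every PC library was above 1 and every PB library below 1. The mean log2 ratio was 0.31 ± 0.15 (SD, n = 4) in PCs and -0.34 ± 0.10 (SD, n = 6) in PBs, a 1.57-fold difference with p = 0.00476 in a two-sided exact permutation test over the 210 possible assignments, the smallest p they can give. This test pools genotypes within a stage and takes each library as independent, although the 2 libraries of a group share their genotype. The p-value therefore describes these 10 libraries and cannot be read as a test over the 5 groups. The control libraries alone differed by 0.65 on the log2 scale. Culture and spleen, the sort, the day and the set of libraries differ together between PBs and PCs and cannot be told apart from the stage. Within each stage, the ratio of every Xbp1- or Mist1-deficient library was above that of both control libraries, and a two-sided exact permutation test of 2 libraries against 2 cannot go below p = 0.333.

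**Figure D3:**
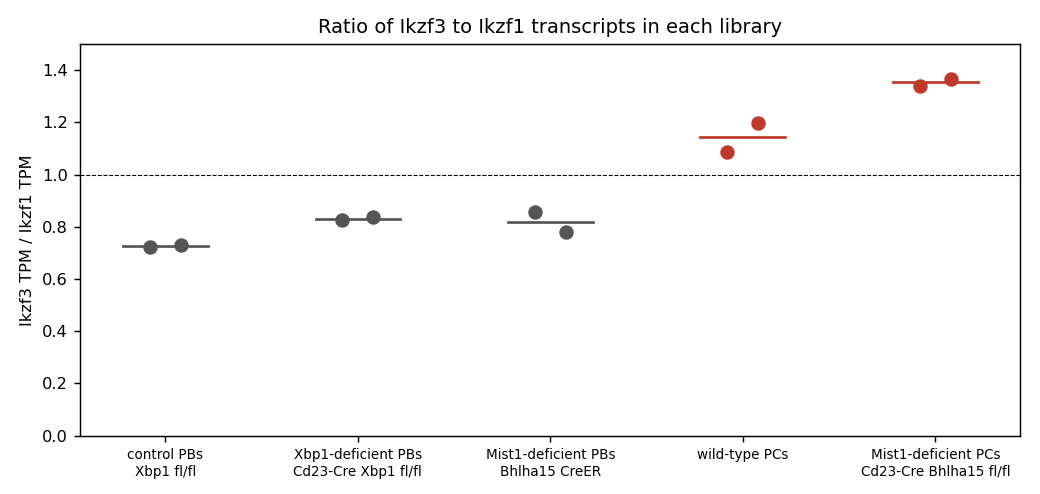
Ratio of *Ikzf3* TPM to *Ikzf1* TPM in each library, as points, with a line at the mean of the 2 libraries of a group, for PBs in grey and PCs in red; the dashed line marks equal levels. The 6 PB libraries lie between 0.724 and 0.856 and the 4 PC libraries between 1.09 and 1.37.

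To test the members in Xbp1-deficient PBs, levels were scaled between libraries by the median of ratios and fitted with limma, and 3 of the 5 members passed the filter of at least 1 TPM in at least 2 libraries. Aiolos transcripts rose in Xbp1-deficient PBs and Pegasus transcripts fell. For *Ikzf3*, the deposited mean was 123 ± 4.21 TPM in control PBs and 183 ± 11.0 TPM in Xbp1-deficient PBs (SD, n = 2 each), and the scaled log2 fold change was 0.36 (SE 0.08, 95% interval 0.17 to 0.55, adjusted p = 0.0122 from limma). For *Ikzf5*, the deposited mean was 16.8 ± 0.0623 TPM and 14.9 ± 1.33 TPM (SD, n = 2 each), and the scaled log2 fold change was -0.38 (SE 0.11, 95% interval -0.63 to -0.14, adjusted p = 0.0280 from limma). *Ikzf1* had deposited means of 169.8 ± 6.84 and 220.4 ± 11.2 TPM (SD, n = 2 each) and a scaled log2 fold change of 0.17 (SE 0.08, 95% interval -0.02 to 0.36, adjusted p = 0.176 from limma). Hence 1 of the 3 tested members was called higher and 1 lower, where 28.3% of all 12125 genes tested were called, 10.3% as higher and 18.0% as lower. In deposited TPM, both Xbp1-deficient libraries lay above both control libraries for *Ikzf1* and *Ikzf3* and below them for *Ikzf5*. Of the genes tested, 57.4% lay above and 20.0% below. *Ikzf2*, which was not among the genes tested, also lay below. No member changed more than 3-fold, as 1.87% of genes did with an adjusted p under 0.05 and more than 5 TPM.

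These calls in Xbp1-deficient PBs rest on few libraries and on the scaling. In TPM as deposited, where the median gene is shifted by 0.21, the log2 fold change was 0.38 for *Ikzf1* (adjusted p = 0.00229 from limma), 0.57 for *Ikzf3* and -0.18 for *Ikzf5* (adjusted p = 0.229 from limma), and calls of all genes split into 3423 higher and 1357 lower instead of 1250 higher and 2186 lower. The adjusted p of *Ikzf3* from limma was 0.109 without control replicate 2 and 0.0968 without Xbp1-deficient replicate 2, and that of *Ikzf5* was 0.176 and 0.0851 without control replicates 1 and 2 and 0.164 without Xbp1-deficient replicate 1. Relative to *Ikzf1* in the same library, *Ikzf5* was at 0.0963 and 0.101 in control PBs and at 0.0655 and 0.0692 in Xbp1-deficient PBs, which is a description without a test. Markers of other cells moved with this comparison. The 8 neutrophil markers summed to between 10.3 and 11.6 TPM in control PBs and to between 133 and 134 TPM in Xbp1-deficient PBs. All 6 of them that could be tested rose. Among these, *Camp* and *Ngp* would not have passed the filter without the Xbp1-deficient libraries, so that they could be tested only by being high there. The 8 plasma cell markers, which include *Xbp1* itself, summed to 41760 and 41770 TPM and to 21030 and 21660 TPM, where 4 fell and 4 were not called. The 7 mature B cell markers summed to 2118 and 2159 TPM and to 3290 and 3362 TPM, but only *Cd79b* rose, while *Cd22* fell and 5 were not called. The 7 fibroblast markers summed to 1026 and 1228 TPM and to 1425 and 1553 TPM, with no marker that rose and *Lum* as the only one that fell. Macrophage or dendritic cell markers did not move together, as *Cd68* fell from 128 and 131 TPM to 16.9 and 18.7 TPM and *Lyz2* rose from 5.86 and 5.22 TPM to 15.1 and 15.8 TPM. Their part in the changes of *Ikzf3* and *Ikzf5* was not tested.

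Loss of Mist1 did not give a called change of a family member in PBs or in PCs. In Mist1-deficient PBs, the scaled log2 fold change against control PBs was -0.08 for *Ikzf1* (95% interval -0.27 to 0.11), 0.09 for *Ikzf3* (-0.10 to 0.28) and -0.01 for *Ikzf5* (-0.26 to 0.23), with adjusted p of 0.785, 0.747 and 0.983 from limma. In this comparison, 0.0495% of all genes were called higher and 0.272% lower, and 1267 genes had an unadjusted p under 0.05. In deposited TPM, both Mist1-deficient PB libraries lay below both control libraries for the 4 members other than *Ikzf3*, and above them for none. Of the genes tested, which do not include *Ikzf2* and *Ikzf4*, 22.5% lay below and 17.0% above. After scaling, the libraries overlapped for *Ikzf5* as well. In Mist1-deficient PCs, the log2 fold changes against control PCs were -0.12 for *Ikzf1* (-0.25 to 0.01), 0.13 for *Ikzf3* (-0.02 to 0.27) and -0.17 for *Ikzf5* (-0.34 to 0.00), with adjusted p of 0.131, 0.169 and 0.122 from limma, while 29.5% of 12028 genes were called, 13.3% as higher and 16.2% as lower. No member changed more than 3-fold, as 0.848% of genes did with a call and more than 5 TPM. In deposited TPM, the Mist1-deficient PC libraries lay above the control libraries for *Ikzf2* and *Ikzf3* and below them for *Ikzf1* and *Ikzf5*. Of the genes tested, which do not include *Ikzf2*, 32.7% lay above and 36.0% below. On the linear scale, the intervals in PCs ran from 0.842 to 1.004 for *Ikzf1*, from 0.984 to 1.21 for *Ikzf3* and from 0.788 to 1.002 for *Ikzf5*. Without control PC replicate 2, the adjusted p of *Ikzf3* was 0.0370 from limma, with a log2 fold change of 0.18. The difference between the changes in PCs and in PBs was also tested, with values of -0.03, 0.05 and -0.14 for *Ikzf1*, *Ikzf3* and *Ikzf5* and adjusted p from 0.522 to 0.885 from limma, so that 0 of 3 members were called where 6.11% of all genes were, 1.94% as higher and 4.17% as lower. The alleles differ between both stages, since *Bhlha15* itself fell to under 1 TPM in *Bhlha15* CreER/CreER PBs and to 14.4 and 16.6 TPM in *Cd23*-Cre *Bhlha15* fl/fl PCs.

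Xbp1-deficient PBs differed from Mist1-deficient PBs in the same members as from control PBs. *Ikzf3* was higher in Xbp1-deficient PBs by 0.27 (SE 0.08, adjusted p = 0.0414 from limma) and *Ikzf5* was lower by a log2 value of -0.37 (SE 0.11, adjusted p = 0.0332 from limma), while the value of *Ikzf1* was 0.25 (SE 0.08, adjusted p = 0.0616 from limma). Of all genes, 27.1% were called, 9.34% as higher and 17.8% as lower, and 1.9% changed more than 3-fold with a call and more than 5 TPM, none of them a member. In deposited TPM, the groups did not overlap for *Ikzf1* and *Ikzf3*, which were higher, and for *Ikzf5*, which was lower, as was the case for 59.3% and 16.5% of genes. Both comparisons use the same Xbp1-deficient libraries. Each call of *Ikzf3* and *Ikzf5* was lost in 8 of 16 alternatives, among them the fit of only the 4 libraries compared, where both had an adjusted p of 0.0634 from limma. Both were lost without control replicate 1 (limma adjusted p = 0.0598 and 0.0629), control replicate 2 (0.0597 and 0.0609), Xbp1-deficient replicate 1 (0.0786 and 0.184) or Mist1-deficient replicate 2 (0.10 and 0.11), and that of *Ikzf3* also without Xbp1-deficient replicate 2 (0.244).

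**Figure D4:**
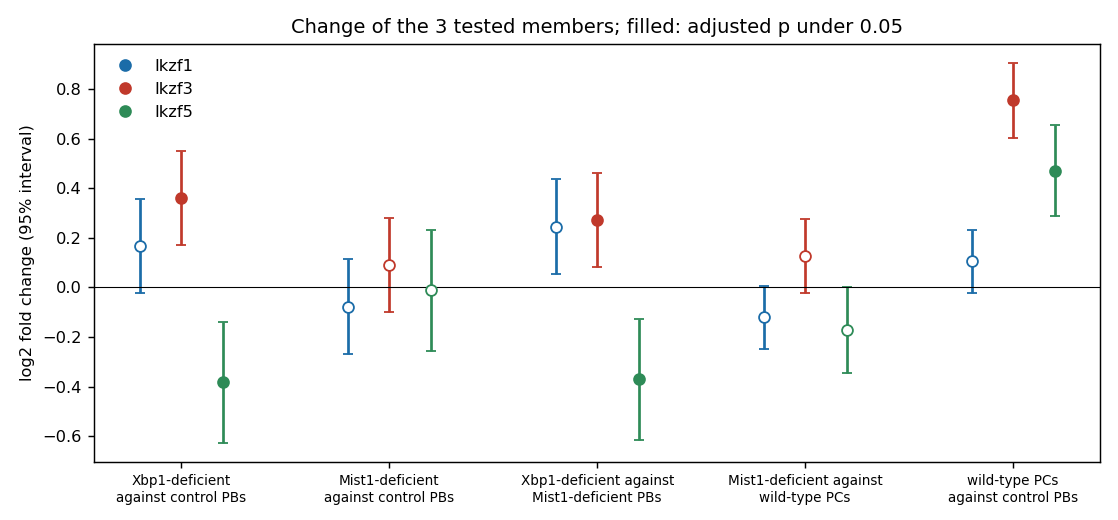
Scaled log2 fold changes of *Ikzf1*, *Ikzf3* and *Ikzf5* with 95% intervals in 5 comparisons, with filled points for an adjusted p under 0.05 from limma. *Ikzf3* is filled at 0.36, 0.27 and 0.76 and *Ikzf5* at -0.38, -0.37 and 0.47, while *Ikzf1* is open throughout.

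Aiolos and Pegasus transcripts were higher in control PCs than in control PBs. The scaled log2 fold change was 0.76 for *Ikzf3* (SE 0.07, 95% interval 0.60 to 0.91, adjusted p = 7.07e-06 from limma) and 0.47 for *Ikzf5* (SE 0.08, 95% interval 0.29 to 0.65, adjusted p = 5.63e-04 from limma). Both calls were kept in all 20 alternatives tried, with log2 fold changes from 0.65 to 0.92 and from 0.39 to 0.58. *Ikzf1* had a value of 0.11 (95% interval -0.02 to 0.23, adjusted p = 0.115 from limma), which passed the threshold in TPM as deposited and after quantile normalization with 0.22 and 0.27 (adjusted p = 0.00424 and 8.88e-04 from limma). As 76.0% of the 13230 genes tested were called, 37.6% as higher and 38.4% as lower, a call in this comparison is the usual case. A change of more than 3-fold was called for 14.0% of genes and for no member. In deposited TPM, all 5 members were higher in both control PC libraries than in both control PB libraries. Of the genes tested, which do not include *Ikzf2* and *Ikzf4*, 48.6% were higher in this way and 39.3% lower. Summed markers of T cells and neutrophils were also higher in PCs. Those of fibroblasts were lower, with 8.38 to 11.2 TPM in PCs and 796 to 1553 TPM in PBs. The 14 T cell markers summed to 12.9 to 23.1 TPM in PBs, 131 and 135 TPM in control PCs and 159 and 204 TPM in Mist1-deficient PCs, and the 8 neutrophil markers summed to 461 to 988 TPM in PCs. The part of these cells in the levels of *Ikzf3* and *Ikzf5* was not tested.

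Among the members, the order of group means in deposited TPM was not the same. *Ikzf3* was highest in Mist1-deficient PCs, followed by control PCs, Xbp1-deficient PBs, Mist1-deficient PBs and control PBs. The PC genotypes did not pass the test against each other, and neither did Mist1-deficient and control PBs. *Ikzf1* was highest in Xbp1-deficient PBs, followed by control PCs, Mist1-deficient PCs, control PBs and Mist1-deficient PBs. Of the neighbours tested, the PC genotypes and the last pair of PB genotypes did not pass. In scaled TPM, *Ikzf1* was at 183.1 and 167.8 in control PBs and at 174.6 and 174.3 in Mist1-deficient PCs. By their scaled means, these neighbouring groups change places. *Ikzf5* was highest in control PCs, followed by Mist1-deficient PCs, control PBs, Mist1-deficient PBs and Xbp1-deficient PBs, and of the neighbours tested, only the last pair passed. Across the 10 libraries, Pearson's r of log2 scaled TPM was 0.62 between *Ikzf3* and *Ikzf5*, 0.31 between *Ikzf1* and *Ikzf3* and -0.26 between *Ikzf1* and *Ikzf5*, as a description over libraries that share their genotype and stage.

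Helios and Eos transcripts were close to the lower end of detection. *Ikzf2* was at 0.172 and 0.204 TPM in control PBs, 0.161 and 0.157 TPM in Xbp1-deficient PBs and 0.169 and 0.0766 TPM in Mist1-deficient PBs. In PCs it was at 0.487 and 0.524 TPM in controls and at 0.576 and 1.09 TPM in Mist1-deficient cells. All PC libraries were thus above all PB libraries, and how many of all genes are separated in this way was not counted. The highest *Ikzf2* value was that of Mist1-deficient PC replicate 2, the library with the highest sum of T cell markers. Of the 14 T cell markers, 10 were under 1 TPM in both libraries of each PB group and none in both libraries of a PC group, and *Cd3e* and *Cd8a*, parts of the T cell receptor complex and of a coreceptor, were listed at 0 in both control PB libraries. The part of T cells in the *Ikzf2* level was not tested. *Ikzf4* was at 0.226 and 0.235 TPM in control PBs, 0.121 and 0.240 TPM in Xbp1-deficient PBs and 0.137 and 0.0336 TPM in Mist1-deficient PBs. In PCs it was at 0.296 and 0.383 TPM in controls and at 0.257 and 0.508 TPM in Mist1-deficient cells. The libraries of Mist1-deficient PCs overlapped those of control PCs. *Ikzf4* is the only member with exons that overlap another gene, *Gm17336* on the opposite strand. Neither gene passed the filter, and without a filter, *Ikzf2* reached a log2 fold change of 0.99 between control PCs and control PBs (adjusted p = 0.0467 from limma), while *Ikzf4* had 0.32 (adjusted p = 0.551 from limma).

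Genes of known partners of the family were examined next. Of 17 genes for NuRD subunits and other corepressors, 3 rose and 0 fell in Xbp1-deficient PBs, where 10.3% of all genes were called higher and 18.0% lower. Their median on the log2 scale was 0.12, against 0.0041 over all genes tested. *Chd3*, an ATPase of NuRD, was at 15.8 and 17.2 TPM in control PBs and at 39.7 and 54.4 TPM in Xbp1-deficient PBs, a log2 difference of 1.28 (SE 0.14, limma adjusted p = 2.64e-04), and its exons overlap *Gm17305* on the opposite strand. *Sin3b*, the scaffold of another corepressor complex, rose by 0.56 (adjusted p = 0.00157 from limma), and *Mta1*, a NuRD subunit, by 0.42 (adjusted p = 0.00764 from limma). In Mist1-deficient PBs, 0 of the 17 genes were called, where only 0.322% of all genes were. In Mist1-deficient PCs, 4 of 16 tested genes rose and 0 fell, where 13.3% of all genes were called higher and 16.2% lower, with a median of 0.13 against 0.01 for all genes. *Mta1* was at 31.3 and 33.5 TPM in control PCs and at 47.3 and 49.5 TPM in Mist1-deficient PCs, a log2 difference of 0.60 (SE 0.07, limma adjusted p = 0.00307). *Mta2*, *Hdac2* and *Mbd3* rose by 0.23, 0.23 and 0.22 (adjusted p from 0.0264 to 0.0316 from limma), and each of these 3 calls was lost in 3 of 13 alternatives. Between control PCs and control PBs, 1 of 17 genes was higher and 9 were lower, where 37.6% and 38.4% of all genes were, with a median of -0.22. The gene with the largest difference was *Ctbp2*, at 2.23 and 3.27 TPM in control PBs and at 0.517 and 0.402 TPM in control PCs (log2 fold change -2.43, adjusted p = 1.05e-04 from limma), whose exons overlap *Fgfr2* on the same strand. *Ctbp2* passed the filter of this fit only through PB libraries.

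**Figure D5:**
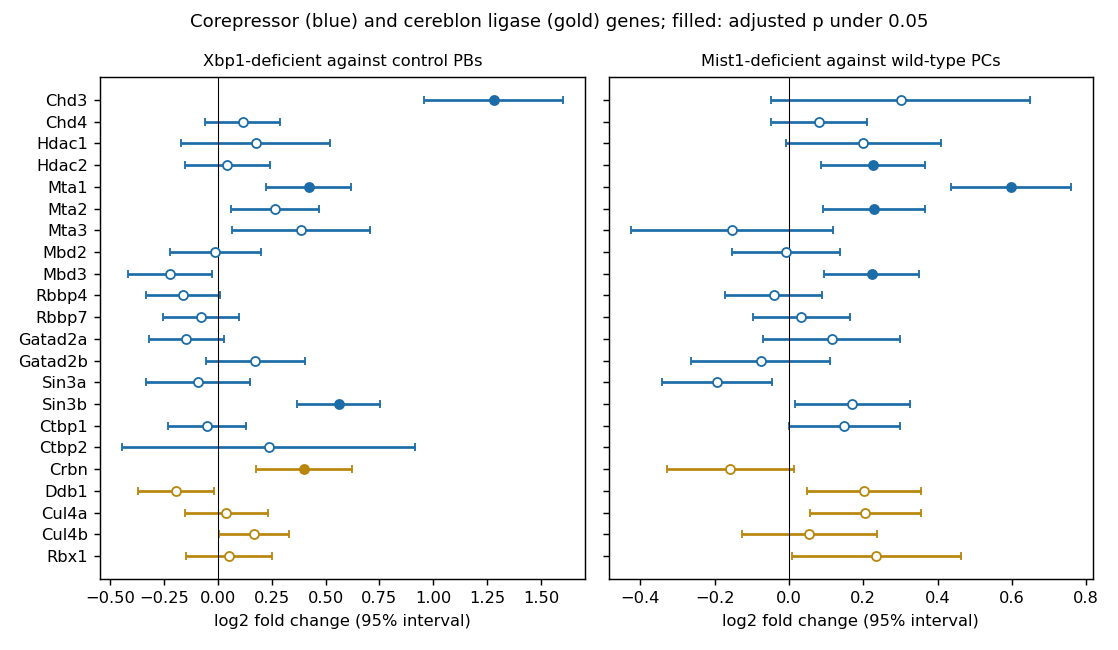
Scaled log2 fold changes with 95% intervals of the 17 corepressor genes (blue) and the 5 cereblon ligase genes (gold) in Xbp1-deficient PBs (left) and Mist1-deficient PCs (right), with filled points for an adjusted p under 0.05 from limma and no point for an untested gene. *Chd3* has the largest change on the left with 1.28, and *Mta1* on the right with 0.60.

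Of the 5 genes of the cereblon ubiquitin ligase, 1 was called in Xbp1-deficient PBs, where 28.3% of all genes were. *Crbn*, the substrate receptor, was at 34.7 and 35.6 TPM in control PBs and at 50.4 and 57.1 TPM in Xbp1-deficient PBs, a log2 difference of 0.40 (SE 0.10, limma adjusted p = 0.0163), and the call was lost in 4 of 16 alternatives. Its exons overlap *Trnt1* on the opposite strand. Between control PCs and control PBs, 1 of the 5 genes was higher and 3 were lower, where 76.0% of all genes were called, led by *Ddb1*, the adaptor of the ligase, with -0.80 (adjusted p = 1.25e-06 from limma). None of the 5 genes was called in Mist1-deficient PBs or PCs, where 0.322% and 29.5% of all genes were.

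Of 11 genes known as targets of Ikaros or Aiolos in lymphocytes, 6 could be tested in PBs and 7 in PCs. In Xbp1-deficient PBs, 0 of 6 rose and 1 fell, where 10.3% and 18.0% of all genes did. *Ccnd2*, *Ccnd3*, *Cdkn1b*, *Blnk* and *Irf4* were not called there, with log2 fold changes from -0.0023 to 0.25. In Mist1-deficient PCs, 1 of 7 rose and 1 fell, where 13.3% and 16.2% of all genes did. *Myc*, the regulator of cell growth that Ikaros and Aiolos repress in B cell precursors, was the gene that fell in both deficient genotypes with called changes. It was at 126 and 123 TPM in control PBs and at 69.3 and 69.4 TPM in Xbp1-deficient PBs (log2 fold change -1.05, SE 0.09, adjusted p = 7.93e-05 from limma), and at 64.5 and 65.4 TPM in control PCs and 36.6 and 38.9 TPM in Mist1-deficient PCs (log2 fold change -0.76, SE 0.07, adjusted p = 0.00195 from limma). In Mist1-deficient PBs, *Myc* was at 108 and 115 TPM and was not called. *Irf4*, a transcription factor required for PCs, rose by 0.38 in Mist1-deficient PCs (adjusted p = 0.00952 from limma). Between control PCs and PBs, 3 of 7 tested targets were higher and 3 lower, where 37.6% and 38.4% of all genes were. *Dntt*, the terminal transferase of lymphocyte precursors, was listed at 0 in both control PB libraries and at 0.829 and 1.20 TPM in control PCs. It is among the 3 higher targets, but it passed the filter only through PC libraries, so that it could be tested only by being high in PCs. *Igll1*, *Vpreb1*, *Rag1* and *Il2* did not pass the filter in PBs or PCs.

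Zinc finger regulators of B cells outside the family were described in the same way. In Xbp1-deficient PBs, 1 of 9 tested genes rose and 1 fell, where 10.3% and 18.0% of all genes did. *Bcl6*, the repressor of germinal center B cells, was at 7.22 and 8.25 TPM in control PBs and at 11.8 and 13.7 TPM in Xbp1-deficient PBs (log2 fold change 0.50, adjusted p = 0.0170 from limma), and the early response gene *Egr1* had a log2 fold change of -0.43 (adjusted p = 0.0468 from limma), with exons that overlap *Gm17507* on the opposite strand. The call of *Bcl6* was lost in 3 of 16 alternatives and that of *Egr1* in 8, with an adjusted p of up to 0.293 from limma. In Mist1-deficient PCs, 0 of 10 rose and 4 fell, where 13.3% and 16.2% of all genes did. *Klf2*, a regulator of lymphocyte homing, was at 291 and 211 TPM in control PCs and at 158 and 134 TPM in Mist1-deficient PCs (log2 fold change -0.75, adjusted p = 0.0269 from limma). *Zbtb32*, *Zbtb20* and *Klf3* fell by 0.62, 0.47 and 0.37 on the log2 scale (adjusted p from 0.0212 to 0.0434 from limma), and exons of *Zbtb20* overlap those of *Gm9968* and *Mir568*. These calls of *Klf2*, *Zbtb32*, *Zbtb20* and *Klf3* were kept in 7, 9, 6 and 8 of 13 alternatives. Between control PCs and PBs, 6 of 10 genes were higher and 2 lower, where 37.6% and 38.4% of all genes were, led by *Klf2* with a log2 fold change of 5.27 (adjusted p = 1.44e-06 from limma). *Zbtb32*, at 0.683 and 1.42 TPM in control PBs and 13.2 and 12.8 TPM in control PCs, passed the filter of this fit only through PC libraries.

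*Ikzf5* shares its start region with *Acadsb*, an enzyme of branched-chain amino acid breakdown that is transcribed in the opposite direction, and was chosen for this position. *Acadsb* was at 40.8 and 44.0 TPM in control PBs, 38.7 and 41.9 TPM in Xbp1-deficient PBs, 34.7 and 33.3 TPM in Mist1-deficient PBs, 53.5 and 44.4 TPM in control PCs and 26.3 and 25.3 TPM in Mist1-deficient PCs. It fell by 0.28 on the log2 scale in Xbp1-deficient PBs (adjusted p = 0.0306 from limma) and by 0.90 in Mist1-deficient PCs (adjusted p = 0.00489 from limma). In Mist1-deficient PBs, the log2 fold change was also -0.28, but it was not called (adjusted p = 0.267 from limma). The first call was lost in 8 of 16 alternatives, among them TPM as deposited with a value of -0.07 (adjusted p = 0.498 from limma), where the libraries of both groups overlap, and the omission of any of the 4 libraries compared. The second was kept in all 13 alternatives. The value of *Ikzf5* in Mist1-deficient PCs was -0.17, with the same region at the common start.

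The genes with the profile most like that of a member were sought among the 9859 other genes with a mean of at least 5 TPM, by Pearson's r over the 10 libraries. They were *Slc29a3* (0.966), *Epc2* (0.940) and *Aff1* (0.937) for *Ikzf1*, *Rapgef5* (0.993) and *Herc4* (0.990) for *Ikzf3*, and *Kctd12*, *Tmem238* and *Man1b1* (0.984 each) for *Ikzf5*. An r above 0.9 was reached by 15 genes for *Ikzf1*, 986 for *Ikzf3* and 693 for *Ikzf5*, and the libraries share genotype and stage, so that these values are a description.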

How the data were processed

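RNA-seq was analysed in 6 PB and 4 PC libraries. The authors trimmed reads with cutadapt, aligned them with STAR 2.4.2 to mm9, counted them with featureCounts 1.5 and deposited TPM without immunoglobulin and T cell receptor genes; whether counting used the strand was not given in the sources used here. The PC files list 543 further genes, all at 0. Mist1 peaks were called by the authors with MACS after Bowtie 1.0.0, in each experiment separately.

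Libraries were scaled by the median of ratios, and log2(TPM + 0.1) was taken; genes that reached 1 TPM in 2 or more libraries of a fit were tested with limma 3.58.1 (R 4.3.3; lmFit, eBayes with trend), with Benjamini-Hochberg adjustment over all genes tested; fold changes of low genes are therefore understated. PBs and PCs were fitted separately, and all 10 libraries together for comparisons between stages. Adjusted p under 0.05 was called. The fit was run on simulated data with 200 changed genes as a check of the code, which does not bear on the calls reported here. Peaks were placed with GENCODE M1 and bedtools 2.31.1, and sequences were read from NCBIM37, the assembly that mm9 corresponds to.

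The members and gene lists were chosen with earlier results of these data known. From each list, up to 4 called genes with the largest change are named. For each member with a mean of at least 5 TPM, the 3 genes with the highest r are named, except 1 that is not reported here. Fold changes and p-values of the authors were not used.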

Additional observations from a re-analysis of the deposited data

Results flagged for a closer look

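The change without Mist1 differed between PCs and PBs for 4 of the genes named, tested as a difference of changes in a fit of all 10 libraries. Of all 13230 genes tested, 6.11% were called. In the lists, 1 of 17 corepressor genes and 1 of 7 known targets were called. No call was made among the 5 cereblon ligase genes and the 10 zinc finger regulators. *Bhlha15* is the targeted gene, and *Acadsb* was chosen for its position. For *Bhlha15* the difference was 4.54 on the log2 scale (adjusted p = 0.00337 from limma), with 14.4 and 16.6 TPM left in Mist1-deficient PCs and 0.210 and 0.551 TPM in Mist1-deficient PBs. *Acadsb*, the neighbour of *Ikzf5*, differed by -0.60 (adjusted p = 0.0393 from limma), with the larger decrease in PCs. *Mta1* differed by 0.42 (adjusted p = 0.0398 from limma), with the larger increase in PCs, and *Myc* by -0.63 (adjusted p = 0.0125 from limma), with the larger decrease in PCs. The difference was called for *Acadsb* in 7 of 18 alternatives, for *Mta1* in 9, for *Myc* in 15 and for *Bhlha15* in all 18. None of the 3 tested family members showed such a difference at an adjusted p under 0.05 from limma. The alleles, the culture and the sort differ between the stages as well and cannot be told apart from it.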

How the results depend on the processing

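No paired analysis was possible because the labels carry no replicate numbers shared between groups. In Xbp1-deficient PBs, 2 members were called, but 1 without a filter, 0 with eBayes without the trend (adjusted p = 0.0506 for *Ikzf3* and 0.0529 for *Ikzf5* from limma) and 0 to 2 when each library was left out. Against Mist1-deficient PBs, 2 were called, but 0 without a filter, without the trend or with only the libraries compared, and 0 to 2 when each library was left out. In Mist1-deficient PCs, 0 were called, and 0 to 1 when each library was left out. In Mist1-deficient PBs, 0 of 3 members were called in every alternative tried, and between control PCs and PBs *Ikzf3* and *Ikzf5* were called in all 20. Signs turned for *Ikzf5* in Mist1-deficient PBs (0.0108) and *Ikzf1* in the difference of the Mist1 effects (0.0134) after quantile normalization, and, when each library was left out, for *Ikzf1* (-0.161 to 0.00635) and *Ikzf5* (-0.0771 to 0.0601) in Mist1-deficient PBs and for *Ikzf1* (-0.0898 to 0.0358) and *Ikzf3* (-0.00533 to 0.111) in that difference; none of these values was called. The log2 difference of the *Ikzf3* to *Ikzf1* ratio was 0.65 with a pseudocount of 1 and 0.61 to 0.72 when each library was left out. The calls over all genes numbered 3436 in Xbp1-deficient PBs (1822 to 4239 when each library was left out), 39 in Mist1-deficient PBs (3 to 58, and 17 to 106 in the other alternatives), 3287 between both (2128 to 3929), 3554 in Mist1-deficient PCs (1110 to 4257) and 809 for the difference of the Mist1 effects (151 to 954, and 323 to 1208). Of the calls between Xbp1- and Mist1-deficient PBs, 1132 were higher and 2155 lower, against 3977 and 1266 in TPM as deposited and 2325 and 1856 after quantile normalization; in Xbp1-deficient PBs, quantile normalization gave 2511 and 1965, and for the difference of the Mist1 effects it gave 529 and 679 instead of 257 and 552. With a distance of 50 kb, *Ikzf1* had 16 and *Ikzf3* 14 Mist1 regions, and *Ikzf2* still 0. Without flanks, 3 members had a region. When common peaks had to share at least 50% of each peak, *Ikzf1* had 9 and *Ikzf3* 8 regions within 10 kb. The peaks of experiment 1 alone numbered 21 and 13 at these genes, and those of experiment 2 numbered 17 and 13. The cause of these dependences was not tested, and depth could not be examined in TPM.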
